A study of Mus musculus with 20 samples.

Results

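Ischemia-reperfusion injury (IRI) of the kidney, in which blood flow is interrupted and then restored, was described at 24 h from the cortex RNA of 4 injured mice and 4 control mice, 8 of the 20 libraries of a series on 3 forms of acute kidney injury. All mice were wild-type C57BL/6J aged 8 weeks, with no transgene or deletion named in the labels. The 4 IRI mice were taken 24 h after injury. The controls were numbers 1 to 4 of 8, chosen because their library identifiers lie in the same range as those of the IRI mice, and each is labelled mock. The other 12 libraries are controls 5 to 8, 4 mice at 24 h after rhabdomyolysis and 4 mice at 72 h after cisplatin, and they enter the choice of genes, the shared estimate of spread, an alternative with all 8 controls and the comparisons of effects near the end. Whether mock means a sham operation is not given in the sources used here, so ischemia and surgery cannot be told apart in the differences from control. The duration of ischemia, whether 1 or both kidneys were clamped, the sex of the mice and the time of day of harvest are not given either, so severity and daily phase cannot be set against any value below. The series describes the mice as biological replicates, and each library is 1 mouse. Every gene with a mean of at least 1 CPM (read counts scaled to a common library size) over all 20 columns was taken, which gave 5672 of the 6025 genes in the deposited table and left out 353. Values of single mice are given in the order of mouse 1 to mouse 4, and a mean is followed by ± its SD over n = 4 mice.

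The proximal tubule makes up most of the renal cortex and reclaims glucose, amino acids, phosphate and filtered proteins with transporters on a brush border, fuelled mainly by oxidation of fatty acids. It is the segment most easily harmed when oxygen fails, because it has little capacity for glycolysis. Injured tubule cells are known to lose their brush border and transporters, to switch on genes such as Havcr1 (kidney injury molecule 1) and Lcn2 (neutrophil gelatinase-associated lipocalin), and, if they survive, to divide and restore the epithelium. Blood monocytes and neutrophils enter the tissue over the same hours.

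The 8 libraries held 3.48 to 5.40 M (mega) reads in the table. Within them, the principal component with the most variance held 85.0% of it and separated IRI from control, and the next, with 5.49%, set controls 2 and 3 apart from controls 1 and 4. Rn45s, the 45S ribosomal RNA precursor, was at 6663, 40536, 25266 and 11854 CPM in the controls and at 5230.1, 5291, 5466 and 6625 CPM in IRI. Slc14a2, a urea transporter of the inner medulla, was at 8.21, 0, 0.258 and 7.34 CPM in the controls and 0.787, 15.7, 1.49 and 4.12 CPM in IRI, so its level varied widely in both groups. As a check of the cortex label, Slc34a1, the sodium-phosphate cotransporter of the proximal tubule, was at 6222 ± 1027 CPM in the controls. Where leaving out controls 2 and 3 moved the count of a list by more than 1.5 times, both counts are given. Smaller moves included injury transcription factors, from 28 to 23 higher, immediate early genes, from 22 to 18, and NF-kappaB and IL-6 family genes, from 22 to 19.

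In IRI 4578 of 5672 genes (80.7%) passed a limma adjusted p of 0.05, 2304 of them higher (40.6%) and 2274 lower (40.1%). The 4 IRI values lay clear of the 4 control values, with no overlap, in 69.7% of genes, for 1949 genes above them (34.4%) and 2007 genes below them (35.4%). The table is itself a selection, as every gene in it departs by 1.5-fold or more from the average control under 1 or more of the injuries. Among the 3824 tested genes that reach 1.5-fold in IRI itself, 94.3% passed, and among the 1848 that are in the table through another injury only, 52.5% did. The counts for each gene list below are to be read against 40.6% higher and 40.1% lower over all genes, and list medians against a median log2 fold change of 0.08 over all genes. With controls 1 and 4 alone, 3871 genes passed.

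CPM is not divided by gene length, so differences in CPM rank genes by reads and not by molecules. The greatest rise by difference in CPM was that of Spp1, the secreted phosphoprotein osteopontin, which went from 1132 ± 91.2 to 24319 ± 3562 CPM (log2 fold change 4.42, SE 0.16, limma adjusted p 3.30e-15). The 4 controls held 1135, 1077, 1057 and 1259.6 CPM and the 4 IRI mice 20905, 29173, 22648 and 24551 CPM. It was followed by Fth1, the ferritin heavy chain, from 5539 ± 975 to 15266 ± 1767 CPM, then Havcr1 and Clu (clusterin, a secreted chaperone, from 358 ± 44.7 to 3455 ± 476 CPM). Ctsd, a lysosomal protease, went from 758 ± 62.5 to 2054 ± 74.99 CPM. Tsc22d1, a transcriptional regulator, went from 247 ± 23.6 to 1151 ± 359.7 CPM. In the opposite direction, the greatest losses in CPM were those of Kap and Gpx3. Kap, the androgen-regulated protein of the mouse proximal tubule, fell from 27496 ± 8609 to 7770.3 ± 2045 CPM. Gpx3, the plasma glutathione peroxidase made in the proximal tubule, fell from 41559 ± 6401 to 23842 ± 1298 CPM. Next came Rn45s, whose loss rests on controls 2 and 3, and then Slc34a1 and Acsm2, which are described with their pathways.

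Genes of the list of tubular injury and repair rose almost as a whole: 25 of 26 tested members were higher and none was lower, with a median log2 fold change of 3.09. Havcr1 stood at 2.69, 4.36, 1.94 and 4.89 CPM in the controls and at 4062, 3094, 3862 and 2851 CPM in IRI (log2 fold change 9.64, SE 0.23, limma adjusted p 1.40e-18). Sprr1a, a small proline-rich protein of stressed epithelia, went from 0.673, 1.13, 1.42 and 1.01 to 44.6, 54.3, 58.0 and 27.8 CPM (log2 fold change 4.48, SE 0.34, limma adjusted p 2.34e-10). Its relative Sprr2f was at 3 reads or fewer in every control and reached 19.9 ± 10.3 CPM, which is at least 48.5-fold higher than the value of 3 reads. Members with a smaller rise included Vcam1, an adhesion molecule, from 7.32 ± 2.43 to 18.5 ± 2.40 CPM, the intermediate filament gene Vim from 34.1 ± 2.93 to 82.2 ± 5.14 CPM, and Itgb6, an integrin subunit, from 99.7 ± 5.18 to 162 ± 39.4 CPM. The keratin Krt7 did not pass (77.0 ± 16.2 and 91.7 ± 5.25 CPM, log2 fold change 0.27, SE 0.15, limma adjusted p 0.0973). The genes named in the series title both rose: Sox9, a transcription factor of tubule repair, had 0.538, 0.422, 0.645 and 1.01 CPM in the controls and 12.5, 26.4, 15.5 and 20.6 CPM in IRI. Vgf, which encodes a secreted precursor of neuropeptides, had 0, 0.141, 0 and 0 CPM in the controls and 4.85, 14.9, 10.2 and 8.58 CPM in IRI.

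**Figure D1:**
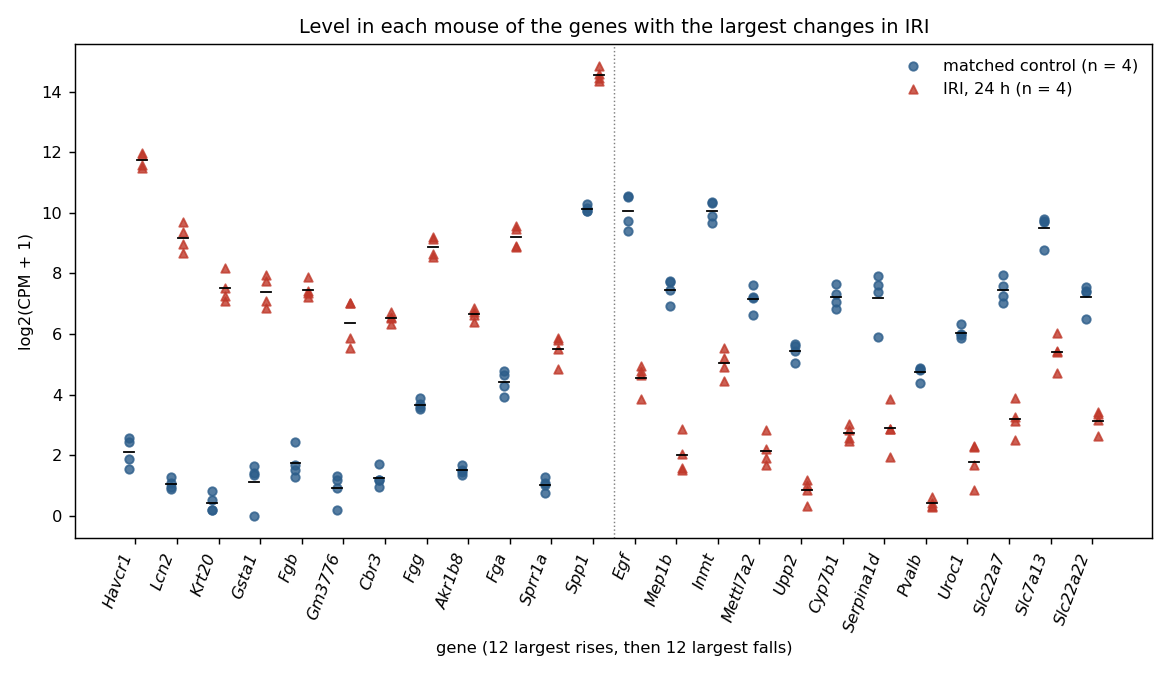
Level of each mouse, as log2(CPM + 1) on the vertical axis, for the 12 genes with the greatest rise and the 12 with the greatest fall in IRI among genes whose groups do not overlap. Blue circles are the 4 matched controls, red triangles the 4 IRI mice and black lines the group means. By that choice the groups stand apart for every gene shown, and the changes run from Havcr1 with a log2 fold change of 9.64 to Egf with −5.49.

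The 3 fibrinogen genes were among the 12 greatest rises. Fibrinogen is the clotting protein of plasma, built from the chains encoded by Fga, Fgb and Fgg, and the liver is its main source. The genes lie side by side within 42.14 kb of chromosome 3 in GRCm38, in the order Fgg (chr3:83007724-83015056), Fga (chr3:83026153-83033627) and Fgb (chr3:83042246-83049863). Because the 3 genes rose together, the 250 bases before the start of each are shown (RefSeq, GRCm38.p6, for Fgg chr3:83007474-83007723, plus strand, for Fga chr3:83025903-83026152, plus strand, for Fgb chr3:83049864-83050113, minus strand). Capitals mark 2 motifs linked with the acute phase response: the core CTGGGAA, and TTCNNNGAA, the palindrome bound by STAT factors, both searched on either strand and with no overlap between them here.
Fgg: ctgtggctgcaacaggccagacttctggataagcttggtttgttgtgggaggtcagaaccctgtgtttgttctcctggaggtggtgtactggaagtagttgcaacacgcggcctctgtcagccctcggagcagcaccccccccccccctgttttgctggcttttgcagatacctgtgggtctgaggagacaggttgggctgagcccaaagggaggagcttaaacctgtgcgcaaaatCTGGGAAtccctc
Fga: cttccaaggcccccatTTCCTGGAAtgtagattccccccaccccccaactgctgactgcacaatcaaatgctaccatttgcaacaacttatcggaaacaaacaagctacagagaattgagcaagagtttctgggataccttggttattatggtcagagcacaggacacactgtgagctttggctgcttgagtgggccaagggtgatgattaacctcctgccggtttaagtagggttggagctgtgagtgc
Fgb: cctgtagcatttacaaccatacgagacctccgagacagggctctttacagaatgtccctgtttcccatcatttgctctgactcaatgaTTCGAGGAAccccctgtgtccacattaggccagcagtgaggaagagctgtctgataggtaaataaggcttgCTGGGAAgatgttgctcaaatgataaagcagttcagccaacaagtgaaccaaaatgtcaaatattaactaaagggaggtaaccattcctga
CTGGGAA was found before Fgg, starting at −13 from the gene start, and before Fgb, at −91. TTCNNNGAA was found before Fga, at −234, and before Fgb, at −162. Of all 32851 RefSeq promoter windows of 250 bases before to 50 bases after the start, 11.1% hold the former and 8.30% the latter, and a match of letters does not show binding. In the controls Fgb was at 1.88, 1.41, 2.19 and 4.46 CPM, and in IRI at 172, 233, 164 and 147 CPM (log2 fold change 5.74, SE 0.33, limma adjusted p 3.29e-12). Fgg went from 10.6, 11.8, 13.8 and 10.9 to 371, 561, 398 and 592 CPM (log2 fold change 5.21, SE 0.21, limma adjusted p 7.65e-15). Fga went from 24.1, 18.6, 26.3 and 14.2 to 469.8, 700.2, 478 and 760.3 CPM (log2 fold change 4.79, SE 0.26, limma adjusted p 1.11e-12). IRI mice 2 and 4 were the highest for Fgg and Fga and mouse 2 for Fgb, and the groups did not overlap in any of the 3. The genes of the proteins that carry STAT3 and IL-6 signals are given below with the inflammatory lists.

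The list of complement, fibrinogen and acute phase genes was mixed, with 9 of 18 tested members higher, the 3 fibrinogen genes among them, and 3 lower (median 0.68). C3, the central complement component, went from 12.9, 11.1, 13.3 and 10.1 to 92.3, 216, 148 and 69.9 CPM (log2 fold change 3.24, SE 0.27, limma adjusted p 8.94e-10), with mouse 2 the highest. Serpina3n, a protease inhibitor, reached 9.31 ± 4.36 CPM, and the acute phase gene Saa1, with no read in any control, reached 2.27 ± 1.18 CPM. The 3 members that fell were Cfb, C2 and C1rl. Cfb, complement factor B of the alternative pathway, fell from 478 ± 82.1 to 226 ± 28.1 CPM. C2 fell from 47.8 ± 4.02 to 27.1 ± 2.66 CPM. C1rl fell from 40.7 ± 7.75 to 26.1 ± 4.32 CPM. Haptoglobin (Hp) did not pass, although its 4 IRI values lay above its 4 control values. It was at 0.135, 0.141, 0.903 and 0.431 CPM in the controls and 1.70, 2.26, 2.18 and 2.06 CPM in IRI.

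Transporters of the proximal tubule fell almost throughout, 33 of 36 tested members lower and none higher, with a median of −1.54. Summed over the list, they held 28229, 27556, 29919 and 20343 CPM in the controls and 9661, 8280.3, 10067 and 10120.0 CPM in IRI, or 36.0% of the control mean. In whole tissue, fewer cells of a type and less RNA per cell cannot be told apart. The deepest losses were those of Slc22a7 and Slc7a13. Slc22a7, the organic anion transporter OAT2, fell from 192, 244, 153 and 130.3 to 4.72, 8.66, 7.81 and 13.8 CPM (log2 fold change −4.26, SE 0.27, limma adjusted p 1.49e-11). Slc7a13, an aspartate and glutamate transporter of the straight proximal tubule, fell from 893, 856, 833 and 435 to 41.7, 25.4, 64.4 and 42.7 CPM (log2 fold change −4.10, SE 0.26, limma adjusted p 1.32e-11). Slc34a1 was at 1132, 742, 999 and 1017 CPM in the IRI mice, 6.40-fold below the control mean, and Slc34a3, its renal paralog, fell from 89.9 ± 11.8 to 4.84 ± 0.491 CPM. The water channel gene Aqp1 fell from 859.7 ± 211 to 137 ± 33.2 CPM. The glucose transporter gene Slc5a2 (SGLT2) fell from 598 ± 66.9 to 201 ± 27.3 CPM. Slc17a1 (691 ± 166 and 539 ± 67.0 CPM), Slc13a3 (697 ± 179 and 513 ± 89.0 CPM) and Slc22a6, the organic anion transporter OAT1 (963 ± 211 and 708 ± 105 CPM), did not pass.

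The brush border and endocytosis list fell in full, 17 of 17 tested members, to 42.5% of the control sum. Its extremes were Mep1b and Anpep. Mep1b, the meprin beta subunit of the brush border, fell from 214, 208, 173 and 120.1 to 1.84, 2.00, 3.10 and 6.29 CPM (log2 fold change −5.46, SE 0.40, limma adjusted p 9.96e-11). The aminopeptidase gene Anpep fell from 172 ± 27.1 to 116 ± 15.8 CPM (log2 fold change −0.56, SE 0.15, limma adjusted p 0.00226). Mep1a, the partner subunit, fell less than Mep1b, from 1717 ± 281 to 566 ± 64.3 CPM (log2 fold change −1.59). Lrp2 (megalin) and Cubn (cubilin), the receptors that take up filtered protein, fell to 65.4% and 64.7% of control, but after quantile normalization neither passed and the log2 fold change of Lrp2 was 0.04. Dpep1, a dipeptidase, fell from 239 ± 25.7 to 49.9 ± 8.30 CPM. Ace (angiotensin-converting enzyme) fell from 238 ± 53.5 to 68.4 ± 5.78 CPM. Tmem27 (collectrin, a partner of amino acid transporters) fell from 2329 ± 217 to 771 ± 83.0 CPM.

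Several of the other genes with the deepest falls encode enzymes. Inmt, a methyltransferase of indoles and amines, fell from 961, 1284, 1301 and 807 to 29.2, 20.8, 35.8 and 45.9 CPM (log2 fold change −5.03, SE 0.21, limma adjusted p 2.09e-14). Upp2, a uridine phosphorylase, fell from 42.5, 48.1, 50.5 and 31.8 to 0.262, 0.799, 1.26 and 1.03 CPM (log2 fold change −4.60, SE 0.33, limma adjusted p 9.93e-11). Cyp7b1, an oxysterol hydroxylase, fell from 159, 201, 133 and 112 to 4.59, 4.93, 7.23 and 6.18 CPM (log2 fold change −4.48, SE 0.26, limma adjusted p 2.77e-12). Uroc1, the urocanate hydratase of histidine breakdown, fell from 65.7 ± 9.89 to 2.69 ± 1.51 CPM. Mettl7a2, a putative methyltransferase, fell from 146 ± 40.5 to 3.66 ± 1.71 CPM. Slc22a22, a prostaglandin transporter, fell from 154 ± 43.3 to 8.03 ± 2.02 CPM. Serpina1d fell from 165 ± 76.9 to 7.22 ± 4.44 CPM and belongs to a family of near-identical mouse genes, so reads may be split between copies.

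Regulators that maintain the proximal tubule had small falls. Of 13 tested, 8 were lower and none higher, with a median of −0.39 and a sum at 71.1% of control. Hnf4a, the master regulator of the mature proximal tubule, had 1184, 1226, 1329 and 1021 CPM in the controls and 866, 782, 876 and 876 CPM in IRI (log2 fold change −0.48, SE 0.18, limma adjusted p 0.0192). Ppargc1a (PGC-1alpha, a coactivator of mitochondrial genes) fell from 97.9, 84.6, 73.8 and 119.7 to 40.5, 49.7, 43.7 and 59.7 CPM (log2 fold change −0.94, SE 0.18, limma adjusted p 6.96e-05). Maf fell from 258 ± 44.8 to 142 ± 22.01 CPM. Nr1h4 (the bile acid receptor FXR) fell from 231 ± 67.1 to 131 ± 37.6 CPM. Esrra fell from 157 ± 12.2 to 103 ± 10.996 CPM. Rxra, Esrrg and Ppargc1b were among the regulators that did not pass. With controls 1 and 4 alone, 6 regulators were lower, and with the columns scaled to their 75th percentile 5 were. Hnf4a is not among those of the latter, and after quantile normalization its log2 fold change was 0.33 and not called.

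Among the markers held in the table, the loss reached every tubule segment listed. The table held 11 of 14 listed thick ascending limb markers and 11 of 15 of the distal convoluted and connecting tubule. It held 11 of 17 intercalated cell markers and 5 of 14 principal cell markers. Its genes were kept for a change in some injury, so the counts do not describe the markers that are absent. Thick ascending limb markers fell in all 11 tested cases and summed to 3677, 2449, 2688 and 3931 CPM in the controls and 508, 692, 695 and 673 CPM in IRI, 20.2% of control, with controls 2 and 3 the lower of the controls. The median log2 fold change of the list was −1.22, and without Egf and Slc12a1, which hold much of the sum, the sum was 43.0% of control. Egf, the epidermal growth factor made in this segment, was at 1474, 674, 851 and 1498 CPM in the controls and 13.6, 29.8, 24.1 and 26.7 CPM in IRI (log2 fold change −5.49, SE 0.27, limma adjusted p 2.31e-13), or 2.096% of the control mean. Slc12a1, the NKCC2 cotransporter, fell from 974, 579, 534 and 1059 to 47.1, 70.7, 71.3 and 92.1 CPM (log2 fold change −3.44, SE 0.25, limma adjusted p 1.07e-10). Ppp1r1a, a phosphatase inhibitor, fell from 178 ± 17.3 to 39.6 ± 3.93 CPM. Casr, the calcium-sensing receptor gene, fell from 61.7 ± 15.4 to 22.9 ± 5.00 CPM.

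Markers of the distal convoluted and connecting tubule fell in all 11 tested cases (median −0.88). Pvalb (parvalbumin, a calcium-binding protein of the early distal convoluted tubule) fell from 20.0, 27.9, 28.4 and 27.2 to 0.262, 0.533, 0.230 and 0.343 CPM (log2 fold change −4.32, SE 0.19, limma adjusted p 5.01e-14). Slc12a3, the thiazide-sensitive cotransporter gene of the same cells, kept 56.3% of its control level (677 ± 173 and 381 ± 63.3 CPM), and Calb1 (calbindin) fell from 768 ± 176 to 178 ± 103 CPM. Slc8a1, a sodium-calcium exchanger, fell from 194 ± 100.2 to 75.6 ± 15.3 CPM. Emx1 fell from 36.1 ± 5.90 to 16.7 ± 2.13 CPM. All 11 intercalated cell markers fell (median −0.95), among them Slc4a1, the chloride-bicarbonate exchanger AE1, from 49.9, 39.3, 44.0 and 129 to 17.2, 12.3, 20.4 and 11.3 CPM. Rhcg, an ammonia channel, fell from 91.3 ± 10.1 to 36.4 ± 2.54 CPM. Atp6v1c2, a proton pump subunit, fell from 34.5 ± 4.45 to 11.6 ± 0.879 CPM. Insrr fell from 33.5 ± 8.42 to 14.1 ± 0.836 CPM. Slc4a1 is also a red cell gene. Of 5 principal cell markers, 4 fell, including the water channel gene Aqp3 from 148 ± 10.2 to 85.0 ± 19.8 CPM. Apela fell from 20.9 ± 1.98 to 9.42 ± 1.02 CPM. Rnf186 fell from 20.8 ± 4.55 to 12.3 ± 2.19 CPM. The transcription factor gene Elf5 rose, from 0.580 ± 0.120 to 1.75 ± 0.728 CPM.

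**Figure D2:**
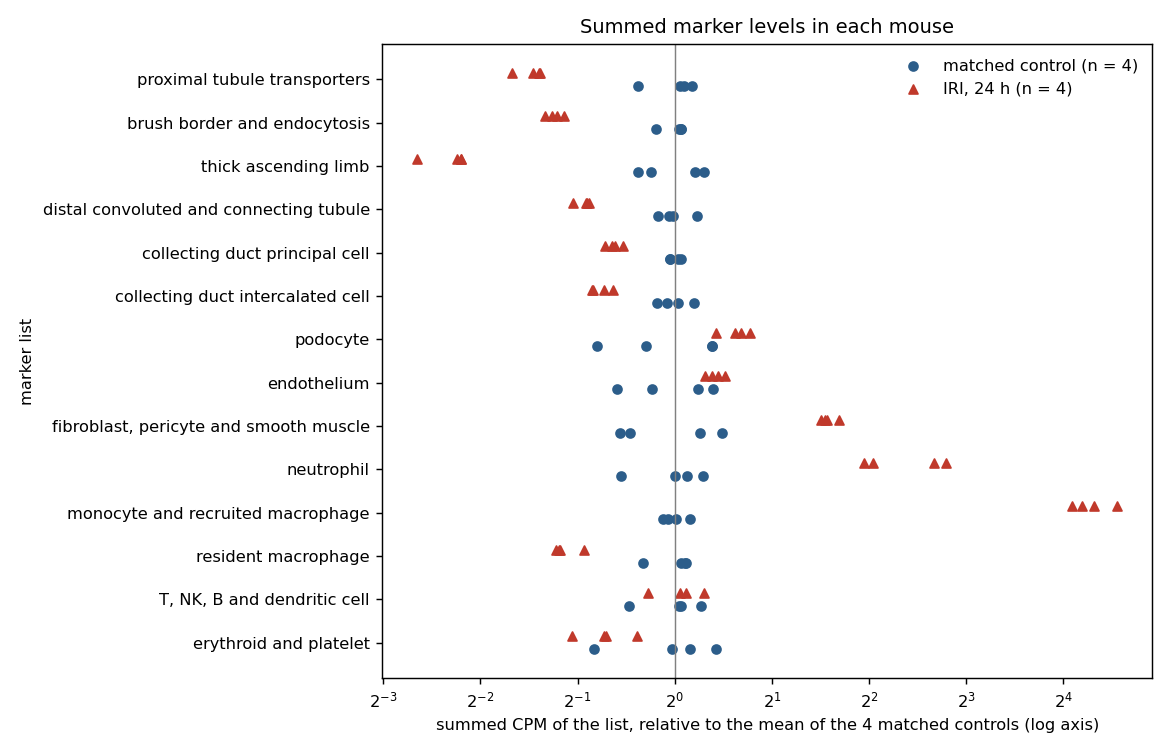
Summed CPM of each marker list in each mouse, relative to the mean of the 4 matched controls, on a log axis, with blue circles for controls and red triangles for IRI. All tubule lists lie left of the controls, the recruited macrophage list lies far to the right (most of its sum is Spp1), and the podocyte and endothelial controls spread widely, with controls 2 and 3 low.

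Podocyte and endothelial markers depended on the controls used. In the podocyte list 4 of 8 members were higher and 2 lower, and its sum was 553, 243, 346 and 551 CPM in the controls and 650.4, 724, 569 and 679 CPM in IRI, so controls 2 and 3 were low. Synpo (synaptopodin, an actin-associated protein of podocyte foot processes) was at 117, 44.8, 71.1 and 193 CPM in the controls and 218, 263, 195 and 179.8 CPM in IRI. Plce1 was at 11.1 ± 6.62 and 18.4 ± 4.70 CPM and Podxl (podocalyxin) at 207 ± 73.5 and 320.5 ± 35.7 CPM. Rhpn1 fell from 15.6 ± 2.28 to 7.36 ± 1.70 CPM. Clic3 fell from 6.90 ± 2.41 to 4.06 ± 0.740 CPM. With controls 1 and 4 alone, 0 podocyte members were higher and 1 was lower, and the median went from 0.47 to 0.00. For endothelium the counts were 5 higher and 2 lower of 11 with all controls, and 1 higher and 2 lower with controls 1 and 4, where the median went from 0.43 to −0.05. Leaving out control 2 alone gave 2 podocyte and 3 endothelial members higher, and leaving out control 1 or control 4 alone gave 8 endothelial members higher. Nos3, the endothelial nitric oxide synthase, was at 7.40, 4.64, 5.03 and 8.20 CPM in the controls and 13.8, 11.3, 12.3 and 13.8 CPM in IRI, and Flt1, a VEGF receptor gene, at 44.8 ± 20.8 and 70.7 ± 6.52 CPM. Aplnr, the apelin receptor gene, fell from 11.7, 6.76, 7.61 and 20.1 to 3.15, 4.66, 4.02 and 1.37 CPM (log2 fold change −1.50, SE 0.34, limma adjusted p 4.62e-04). Vwf, the von Willebrand factor gene, fell from 2.24 ± 1.37 to 0.909 ± 0.270 CPM.

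Genes of vitamin D and phosphate handling moved in both directions, 3 higher and 7 lower of 11 tested, with 4 lower after quantile normalization. Kl (klotho, the coreceptor for FGF23) fell from 1177, 845, 1051 and 1341 to 282, 310.5, 344 and 304 CPM (log2 fold change −1.81, SE 0.15, limma adjusted p 6.14e-10). Cyp24a1, which degrades active vitamin D, rose from 48.8, 74.5, 119 and 52.9 to 438, 624, 585 and 257 CPM (log2 fold change 2.69, SE 0.43, limma adjusted p 9.02e-06). Slc34a2, the phosphate cotransporter better known from lung and gut, rose from 3.90, 3.8003, 2.58 and 2.88 to 27.7, 77.5, 57.2 and 34.9 CPM (log2 fold change 3.45, SE 0.39, limma adjusted p 7.39e-08) while Slc34a1 and Slc34a3 fell. The housekeeping phosphate transporter Slc20a1 rose from 26.6 ± 1.74 to 64.0 ± 10.6 CPM. Cyp27b1, which activates vitamin D, did not pass, with 10.2, 5.35, 6.07 and 10.5 CPM in the controls and 8.79, 6.26, 8.38 and 119.7 CPM in IRI, where mouse 4 was high.

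Fuel metabolism fell broadly. Of 46 tested genes of the respiratory chain and citrate cycle, 45 were lower and none higher (median −0.79, or 28 lower and a median of −0.28 after quantile normalization). Their sum was 24076, 32553, 31102 and 24382 CPM in the controls and 13751, 14580.4, 15169 and 16466 CPM in IRI. Mdh1, a malate dehydrogenase, fell from 1620.2 ± 338 to 473 ± 63.8 CPM. Idh2, the mitochondrial isocitrate dehydrogenase, fell from 597 ± 112 to 185 ± 16.4 CPM. Sdha, the catalytic subunit of complex II, fell from 1067 ± 166 to 431 ± 29.4 CPM. Cox7a1, a subunit of complex IV, fell from 10.2 ± 1.83 to 2.22 ± 0.748 CPM. Cox5a did not pass. All 8 genes of gluconeogenesis and fructose use fell, among them G6pc (glucose-6-phosphatase) from 443, 459.8, 568 and 326 to 86.4, 99.9, 126 and 187 CPM (log2 fold change −1.87, SE 0.37, limma adjusted p 1.01e-04). Fbp1 (fructose-1,6-bisphosphatase) fell from 1437 ± 348 to 395 ± 105 CPM. Khk (ketohexokinase) fell from 581 ± 152 to 196 ± 38.3 CPM. Pcx (pyruvate carboxylase) fell from 625 ± 81.2 to 269 ± 36.8 CPM.

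Lipid genes split into those that burn fatty acids and a small group that rose. Of 38 tested, 28 were lower and 7 higher (median −0.77). Acsm3 and Acsm2, medium-chain acyl-CoA ligases of the kidney, fell from 805 ± 161 to 107 ± 63.4 CPM and from 6319 ± 459 to 1707 ± 329 CPM. Acadm, the medium-chain dehydrogenase of beta-oxidation, fell from 998 ± 178 to 327 ± 45.6 CPM. Bdh1, a ketone body dehydrogenase, fell from 155 ± 43.9 to 24.2 ± 4.01 CPM. Among the members that rose were several that do not shorten fatty acids themselves. Pdk4, a kinase that shuts pyruvate out of the citrate cycle, rose from 8.61, 9.71, 9.94 and 38.3 to 77.0, 166, 108 and 185 CPM (log2 fold change 3.14, SE 0.39, limma adjusted p 3.56e-07). Plin2, the coat protein of lipid droplets, rose from 86.2, 128, 111 and 87.3 to 762, 751, 549 and 1309 CPM (log2 fold change 2.96, SE 0.20, limma adjusted p 2.76e-11). Cyp4a14, a fatty acid omega-hydroxylase from a cluster of similar genes, rose from 40.3 ± 13.6 to 199 ± 88.1 CPM. Angptl4, an inhibitor of lipoprotein lipase, rose from 48.9 ± 12.7 to 162 ± 33.5 CPM. Fabp1, a fatty acid binding protein, rose from 0.929 ± 0.491 to 4.44 ± 1.08 CPM. Acot2, a mitochondrial thioesterase, rose from 51.8 ± 7.49 to 116 ± 24.0 CPM. Cidec, a lipid droplet protein of fat cells and the only tested member of the muscle, adipose and adrenal list (17 genes), rose from 0.269, 0.282, 0.387 and 0.144 to 4.33, 6.66, 6.09 and 12.4 CPM (log2 fold change 2.64, SE 0.51, limma adjusted p 7.90e-05).

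Tryptophan and NAD metabolism fell with 12 of 15 tested members lower. This pathway makes NAD from tryptophan in the proximal tubule, and several of its steps fell together. Ido2 fell from 10.0 ± 1.35 to 1.21 ± 0.570 CPM. Kmo fell from 228 ± 41.5 to 58.6 ± 4.62 CPM. Haao fell from 185 ± 51.0 to 48.4 ± 4.78 CPM. Qprt fell from 81.0 ± 21.4 to 37.1 ± 4.26 CPM. Acmsd, which diverts the pathway away from NAD, fell from 167, 154, 164 and 166 to 47.1, 24.0, 35.5 and 18.5 CPM (log2 fold change −2.43, SE 0.26, limma adjusted p 3.29e-08). The members that rose were Nnmt and Cd38. Nnmt, which methylates nicotinamide, rose from 0.723 ± 0.369 to 1.85 ± 0.222 CPM. Cd38, which consumes NAD, rose from 9.09 ± 2.08 to 13.04 ± 1.06 CPM, and 0 rose against controls 1 and 4 alone. In the cholesterol list 9 of 14 fell and 3 rose. Cyp51 (lanosterol demethylase) fell from 232 ± 44.6 to 60.3 ± 8.38 CPM. Idi1 fell from 176 ± 21.9 to 76.1 ± 10.8 CPM. Msmo1, another synthesis enzyme, was among those that rose, from 36.7 ± 8.09 to 67.7 ± 5.67 CPM.

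Glycolysis genes were divided, 6 higher and 3 lower of the 10 in the table, from a list of 23. The median was 0.65, but the summed level of these members was 80.0% of control, or 95.9% without Tpi1 and Slc16a1. The listed genes outside the table are not in this sum. Slc16a1, the lactate and pyruvate transporter MCT1, rose from 24.9 ± 3.12 to 113 ± 26.5 CPM. The hexokinase gene Hk2 rose from 0.276 ± 0.122 to 4.15 ± 1.64 CPM. Aldoc fell from 11.4 ± 3.07 to 3.30 ± 1.22 CPM. Pfkm fell from 76.4 ± 11.1 to 29.1 ± 2.11 CPM. Tpi1 fell from 1006 ± 227 to 643 ± 39.6 CPM (log2 fold change 0.10 after quantile normalization, not called). The hypoxia list, with 13 of its 26 genes in the table, showed no common direction either. Of these, 8 were higher and 5 lower, with a median of 0.45. Their sum was 87.7% of control, or 118% without Car12 and Bnip3. Adm (adrenomedullin, a vasodilator) rose from 7.53, 6.76, 9.81 and 6.62 to 27.4, 26.0, 24.1 and 28.1 CPM (log2 fold change 1.67, SE 0.13, limma adjusted p 2.14e-10). Lox, a collagen crosslinking enzyme, rose from 2.23 ± 1.44 to 7.86 ± 1.85 CPM. Car9 (carbonic anhydrase 9), a classic target of hypoxia-inducible factor, fell from 12.2, 18.02, 14.6 and 9.92 to 4.06, 3.60, 5.05 and 4.35 CPM (log2 fold change −1.46, SE 0.21, limma adjusted p 2.59e-06), and Bnip3, Egln1, Car12 and Pdk3 were lower as well.

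**Figure D3:**
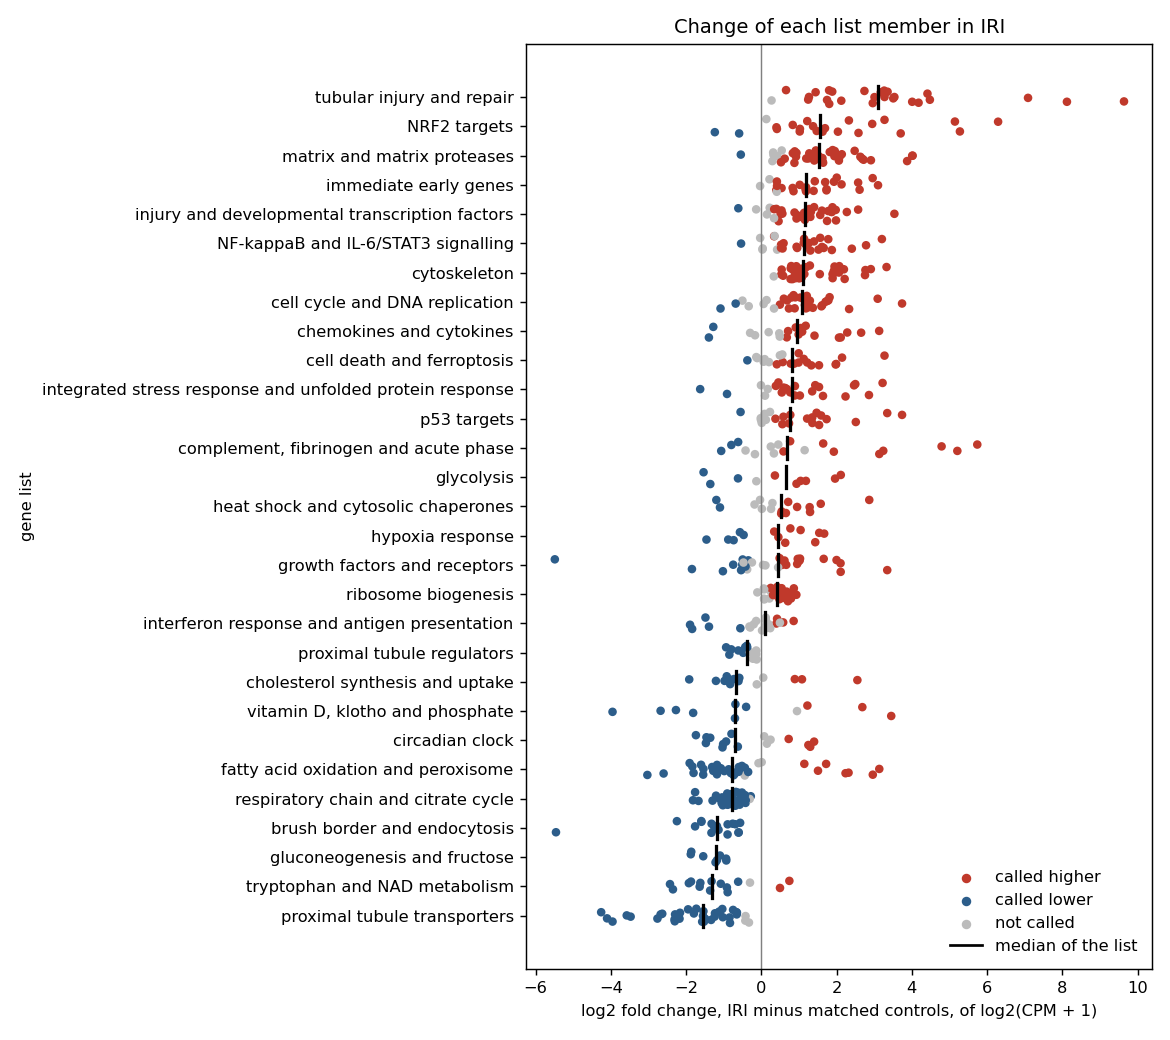
Log2 fold change in IRI of every tested member of the 29 pathway lists, with red points for genes called higher, blue for genes called lower, grey for genes not called and a black bar at the list median. Medians run from −1.54 for proximal tubule transporters to 3.09 for tubular injury and repair.

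Transcription factors tied to injury and development rose in 28 of 34 tested cases (median 1.15). Besides Sox9, Myc rose from 8.34, 6.19, 5.03 and 5.03 to 50.2, 41.2, 33.8 and 39.9 CPM (log2 fold change 2.57, SE 0.19, limma adjusted p 1.62e-10). Cebpd, a factor of the acute phase response, rose from 3.05 ± 0.866 to 18.8 ± 5.43 CPM. Klf6 rose from 37.5 ± 8.32 to 149 ± 15.8 CPM. Sox4 rose from 11.9 ± 4.06 to 45.2 ± 4.89 CPM. Runx1 rose from 1.48 ± 0.680 to 6.55 ± 1.78 CPM. Lhx1, a nephron patterning factor, was the member that fell, from 16.8 ± 0.479 to 10.8 ± 2.06 CPM. Immediate early genes, which respond within minutes to stimuli, were higher at 24 h in 22 of 25 cases. Fosl1 had at most 1 read in a control and 11.9, 5.06, 8.04 and 7.66 CPM in IRI, at least 19.9-fold above the value of 3 reads. Atf3, a stress factor, rose from 0.942, 0.282, 1.16 and 0.719 to 12.3, 12.1, 9.53 and 17.4 CPM (log2 fold change 2.96, SE 0.18, limma adjusted p 5.92e-12). Maff rose from 1.93 ± 0.711 to 16.6 ± 2.87 CPM. Fos itself rose from 0.966 ± 0.316 to 3.45 ± 0.397 CPM, and Fosb, Nr4a2 and Mafk did not pass.

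Of 28 tested genes of NF-kappaB and IL-6 family signalling, 22 were higher (median 1.13). These are RNA levels of pathway members, with inhibitors among them, and the activity of the pathways was not measured. Socs3, the feedback inhibitor induced by STAT3, rose from 3.09, 2.11, 1.68 and 1.15 to 17.4, 40.9, 26.2 and 24.3 CPM (log2 fold change 3.20, SE 0.24, limma adjusted p 2.02e-10). Osmr, the oncostatin M receptor, rose from 5.17 ± 2.42 to 30.3 ± 6.24 CPM. Stat3 rose from 57.0 ± 2.45 to 143 ± 19.1 CPM. Il1rn, the IL-1 receptor antagonist, rose from 0.0995 ± 0.128 to 7.00 ± 2.92 CPM. Bcl3, an NF-kappaB cofactor, rose from 4.75 ± 1.11 to 20.4 ± 5.46 CPM. Lifr, the LIF receptor gene, fell from 99.2 ± 9.64 to 68.0 ± 6.30 CPM. Its ligand Lif rose from 0.269, 0.282, 0.129 and 0.575 to 10.4, 18.2, 10.4 and 5.83 CPM (log2 fold change 3.13, SE 0.29, limma adjusted p 4.02e-09), with mouse 2 the highest. Among chemokines and cytokines 13 of 20 tested rose and 2 fell. The macrophage growth factors Il34 and Csf1, both ligands of the receptor Csf1r, rose. Il34 rose from 11.3, 11.54, 15.6 and 7.77 to 82.6, 76.9, 68.9 and 76.4 CPM (log2 fold change 2.65, SE 0.15, limma adjusted p 3.05e-12). Csf1 rose from 7.00, 3.94, 4.39 and 7.48 to 36.5, 29.2, 31.8 and 26.4 CPM (log2 fold change 2.28, SE 0.23, limma adjusted p 1.73e-08). The neutrophil attractant Cxcl1 rose from 0.105 ± 0.0700 to 4.01 ± 1.94 CPM. Ccl2, the monocyte attractant, rose from 0.276 ± 0.164 to 1.75 ± 0.614 CPM. Il6 had 0.262, 0.266, 0.230 and 0 CPM in IRI and did not pass. Cxcl12 fell from 153 ± 37.6 to 61.4 ± 3.70 CPM. Cxcl9, an interferon-gamma target, fell from 3.23 ± 1.54 to 0.684 ± 0.967 CPM.

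Markers of blood-derived myeloid cells rose. Neutrophil markers rose in 10 of 11 tested cases but stayed low, with a summed 6.32, 3.94, 5.81 and 7.05 CPM in the controls and 36.8, 40.0, 23.8 and 22.3 CPM in IRI, where mice 1 and 2 were the highest. S100a9 went from 0.269, 0.282, 0.387 and 0.575 to 8.92, 9.99, 6.20 and 4.92 CPM (log2 fold change 2.59, SE 0.30, limma adjusted p 1.06e-07). S100a8 went from 0.204 ± 0.0761 to 4.70 ± 2.03 CPM. Mmp9 went from 0.555 ± 0.302 to 2.72 ± 0.810 CPM, and Clec4d had no read in the controls and 1.35 ± 0.594 CPM in IRI. Monocyte and recruited macrophage markers rose in 13 of 16 cases. One of them, Spp1, is also in the list of tubular injury. The list summed to 1965% of control, and to 245% without Spp1 and Lgals3. Chil3 rose from 0.104 ± 0.134 to 7.05 ± 1.89 CPM. Cd14, the coreceptor for endotoxin, rose from 3.77, 3.24, 3.87 and 3.88 to 27.3, 38.4, 21.6 and 33.9 CPM (log2 fold change 2.71, SE 0.25, limma adjusted p 2.90e-09). The chemokine receptor gene Ccr1 rose from 0.626 ± 0.351 to 9.28 ± 2.60 CPM. Ccr2, a defining receptor of inflammatory monocytes, did not pass (7.80, 4.79, 3.74 and 3.31 CPM in the controls and 5.38, 4.53, 5.05 and 3.89 CPM in IRI).

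Among resident macrophage markers 4 of 8 fell, where 40.1% of all genes did, and 1 rose. Csf1r, the receptor on which macrophages depend, fell from 50.3, 57.4, 44.4 and 44.2 to 17.0, 15.3, 17.8 and 14.4 CPM (log2 fold change −1.54, SE 0.18, limma adjusted p 1.05e-07). Apoe, which tubule cells also express, fell from 278 ± 42.7 to 105 ± 11.9 CPM. C1qa rose from 11.8 ± 1.69 to 18.6 ± 5.22 CPM (log2 fold change 0.59, SE 0.24, limma adjusted p 0.0306), and with controls 1 and 4 alone 0 members rose. C1qb and C1qc did not pass. In the interferon and antigen presentation list 5 of 21 members fell (23.8%), where 40.1% of all genes did. They were genes of MHC class II, which present antigen to T cells, with their invariant chain and transactivator. This group was not a list of its own. H2-Eb1 fell from 60.1, 63.1, 61.8 and 54.4 to 16.1, 16.1, 14.2 and 14.99 CPM (log2 fold change −1.89, SE 0.16, limma adjusted p 1.34e-09). H2-Aa fell from 68.6, 72.2, 66.5 and 52.6 to 19.3, 17.0, 16.8 and 16.4 CPM (log2 fold change −1.84, SE 0.17, limma adjusted p 5.13e-09). H2-Ab1 fell from 63.4 ± 7.48 to 21.99 ± 2.20 CPM. The invariant chain Cd74 fell from 142 ± 23.3 to 53.2 ± 6.49 CPM. Ciita, their transactivator, fell from 3.56 ± 1.18 to 2.07 ± 0.627 CPM. Over the whole list few genes passed in the other direction, with 4 of 21 higher (Psmb10, Isg20, Ifit2 and Irf1), a median of 0.10, a sum at 73.6% of control and 1 higher against controls 1 and 4. Lymphoid and dendritic markers were near the limit of detection. Of 3 tested, Lck rose from 0.959 ± 0.262 to 1.81 ± 0.738 CPM while Cd8a (1.68 ± 0.488 and 1.19 ± 0.862 CPM) and Zbtb46 did not pass, and 0 rose against controls 1 and 4. Red cell and platelet markers were lower in 5 of 10 cases. Hba-a2 fell from 118, 268, 330.4 and 170.1 to 51.4, 109, 158 and 84.1 CPM. Hba-a1 fell from 870.3 ± 427 to 430.2 ± 86.4 CPM, and reads of these near-identical copies can be exchanged. In this list 1 was lower against controls 1 and 4. Without control 2, control 3 or IRI mouse 1 the count was 3. Alas2 did not pass.

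Markers of fibroblasts, pericytes and smooth muscle rose in all 10 tested cases (median 1.24), and in 8 against controls 1 and 4. Col1a1 (the collagen I alpha 1 chain) rose from 17.8, 9.01, 7.23 and 19.0 to 89.0, 86.0, 93.7 and 60.6 CPM (log2 fold change 2.63, SE 0.38, limma adjusted p 2.82e-06). Col3a1 rose from 41.7, 17.7, 12.3 and 42.0 to 163, 159, 153 and 109 CPM (log2 fold change 2.48, SE 0.42, limma adjusted p 2.01e-05). The contractile gene Acta2 rose from 28.5 ± 4.42 to 75.5 ± 24.95 CPM. The contractile gene Tagln rose from 23.5 ± 5.54 to 85.7 ± 20.4 CPM. Matrix and matrix protease genes rose in 37 of 43 cases. Timp1, a protease inhibitor, rose from 0.269, 0.141, 0.516 and 0.144 to 23.1, 20.9, 22.04 and 12.9 CPM (log2 fold change 4.01, SE 0.40, limma adjusted p 1.12e-08). Cyr61, a target of YAP, rose from 9.08 ± 2.79 to 143 ± 13.2 CPM. Tnc (tenascin C) rose as well. Ctgf, another YAP target, did not pass (43.0 ± 18.9 and 55.5 ± 30.0 CPM), nor did Fn1 (fibronectin, 19.6 ± 10.7 and 21.7 ± 2.98 CPM). Timp3 fell from 2661 ± 557 to 1809.5 ± 249.5 CPM (log2 fold change 0.29 after quantile normalization, not called). Cytoskeleton genes rose in 37 of 38 cases (median 1.11), including Flnc (filamin C) from 0.546 ± 0.290 to 14.7 ± 4.27 CPM. S100a10 rose from 62.8 ± 13.1 to 476 ± 71.0 CPM. Tubb2a rose from 25.8 ± 5.16 to 189 ± 79.4 CPM. Capg rose from 9.34 ± 2.09 to 67.9 ± 5.37 CPM.

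Targets of NRF2, a transcription factor of the response to oxidative and electrophilic stress, rose in 19 of 22 tested cases (median 1.55). Gsta1, a glutathione transferase gene, rose from 0, 1.55, 1.68 and 2.16 to 244, 134, 213 and 114 CPM (log2 fold change 6.29, SE 0.32, limma adjusted p 5.08e-13). The similar gene Gm3776 rose from 0.948 ± 0.587 to 90.2 ± 44.7 CPM, and reads can be shared between this pair. Cbr3, a carbonyl reductase gene, rose from 0.942, 2.25, 1.29 and 1.29 to 79.9, 94.0, 105 and 91.6 CPM (log2 fold change 5.28, SE 0.22, limma adjusted p 1.87e-14). Akr1b8, an aldo-keto reductase gene, rose from 1.88, 1.55, 2.19 and 1.73 to 105, 114, 98.3 and 82.5 CPM (log2 fold change 5.15, SE 0.16, limma adjusted p 1.12e-16). Hmox1 (heme oxygenase 1) rose from 30.7, 54.9, 48.4 and 36.4 to 783, 464, 489 and 528 CPM (log2 fold change 3.70, SE 0.19, limma adjusted p 5.51e-13). Nqo1, a quinone reductase gene, rose from 81.6 ± 19.5 to 332 ± 39.7 CPM. The members that fell were Gstm2 and Me1. Gstm2 fell from 42.7 ± 5.66 to 17.6 ± 2.43 CPM. Me1 fell from 753 ± 80.4 to 499 ± 30.8 CPM. In the list of cell death and ferroptosis 14 of 22 rose. Slc7a11, the cystine importer that guards against ferroptosis, rose from 0.404, 0.282, 0.387 and 0.144 to 24.0, 8.12, 11.02 and 8.12 CPM (log2 fold change 3.27, SE 0.29, limma adjusted p 2.05e-09). Acsl4, which promotes ferroptosis, rose from 59.2 ± 14.4 to 267 ± 72.9 CPM. Tfrc, the transferrin receptor, rose from 54.2 ± 19.5 to 209.8 ± 18.7 CPM. The necroptosis genes Mlkl and Ripk3 rose from 1.48 ± 0.966 to 8.55 ± 2.83 CPM and from 0.515 ± 0.214 to 2.88 ± 1.08 CPM. Gsdmd and Fas did not pass, and Bid, the member that fell, went from 78.4 ± 12.1 to 60.2 ± 6.97 CPM (0 members fell against controls 1 and 4).

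The integrated stress response slows translation and, through the factor ATF4, raises genes for amino acid supply. Its list, which includes the unfolded protein response, had 19 of 24 members higher and 2 lower (median 0.83). The largest rise was that of Asns (asparagine synthetase), whose promoter is shown as an example (RefSeq, GRCm38.p6, chr6:7693210-7693459, minus strand) with the composite motif TGATGNAA, bound by CHOP-ATF4 pairs and searched on both strands, in capitals.
Asns: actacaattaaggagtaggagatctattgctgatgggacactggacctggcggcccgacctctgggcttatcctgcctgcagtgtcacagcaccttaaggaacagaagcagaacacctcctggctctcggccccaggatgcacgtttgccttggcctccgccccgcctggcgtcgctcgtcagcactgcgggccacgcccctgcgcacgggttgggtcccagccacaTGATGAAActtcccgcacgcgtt
The motif starts at −23, and 3.97% of all promoter windows hold it, as do 3 of 10 genes of this response for which a promoter was available (Asns, Chac1 and Trib3). Asns was at 3.50, 4.50, 4.52 and 3.16 CPM in the controls and 69.6, 35.6, 40.1 and 39.8 CPM in IRI (log2 fold change 3.22, SE 0.19, limma adjusted p 2.84e-12). Trib3, a pseudokinase, was at 0.942, 1.13, 1.55 and 1.44 and 28.7, 6.79, 7.46 and 5.49 CPM. Chac1, which degrades glutathione, was at 0.404, 0.422, 0.774 and 0.288 and 10.8, 2.40, 1.49 and 3.32 CPM. Mthfd2, a folate enzyme, was at 2.15, 2.96, 2.58 and 2.01 and 29.8, 16.0, 16.3 and 14.2 CPM. IRI mouse 1 was the highest of its group in each of these 4. Atf5 rose from 14.8 ± 2.69 to 120.1 ± 53.8 CPM. Psat1, of serine synthesis, rose from 56.1 ± 10.1 to 311 ± 35.9 CPM, where mouse 4 was high. The chaperone of the endoplasmic reticulum Hspa5 (BiP) rose from 305 ± 52.5 to 486 ± 33.2 CPM. Herpud1 fell from 434, 492, 504 and 311 to 117, 131, 136 and 174 CPM (log2 fold change −1.62, SE 0.17, limma adjusted p 3.55e-08). Shmt2, of mitochondrial serine use, fell from 245 ± 45.9 to 128 ± 7.24 CPM.

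Heat shock genes had 9 members higher and 2 lower of the 16 in the table, from a list of 32. The median (0.53) and the sum (74.3% of control) of these 16 differ in direction since the members with the most reads fell. Hspa8, the constitutive Hsc70 chaperone, fell from 2938, 4277, 3843 and 2499 to 1645, 1292, 1634 and 1649.7 CPM (log2 fold change −1.10, SE 0.19, limma adjusted p 2.44e-05). Its partner Dnaja1 fell from 532 ± 125 to 227 ± 12.2 CPM. The small heat shock genes Hspb1, Cryab and Hspb8 rose. Hspb1 rose from 7.80, 10.7, 7.87 and 5.90 to 55.1, 69.4, 69.5 and 63.6 CPM (log2 fold change 2.87, SE 0.18, limma adjusted p 9.10e-12). Cryab rose from 70.03 ± 22.6 to 209.7 ± 54.8 CPM. Hspb8 rose from 4.78 ± 0.728 to 13.1 ± 0.877 CPM. Serpinh1, the collagen chaperone Hsp47, rose from 82.0 ± 12.4 to 202 ± 32.9 CPM.

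Targets of p53 rose in 15 of 22 cases (median 0.75). Cdkn1a (p21), which halts the cell cycle, rose from 4.44, 3.52, 5.55 and 5.75 to 80.4, 64.9, 63.8 and 99.0 CPM (log2 fold change 3.74, SE 0.18, limma adjusted p 1.79e-13). Gdf15, a stress hormone, rose from 3.63 ± 1.56 to 44.4 ± 5.62 CPM. Eda2r rose from 0.558 ± 0.605 to 7.45 ± 1.27 CPM. Btg2 rose from 13.3 ± 0.874 to 47.9 ± 14.7 CPM. Ccng1, Fas, Plk2, Sesn2, Trp53inp1 and Trp53i11 did not pass, and Sesn1 fell from 16.1 ± 1.12 to 10.7 ± 1.03 CPM.

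Most genes of the cell cycle list rose, Cdkn1a among them. Of that list 25 of 32 tested members were higher and 2 lower (median 1.08). Uhrf1, which maintains DNA methylation at replication forks, rose from 1.35, 0.845, 1.29 and 2.16 to 17.4, 22.5, 29.7 and 11.4 CPM (log2 fold change 3.09, SE 0.27, limma adjusted p 1.34e-09). Hells, a chromatin remodeler, rose from 1.75, 1.27, 1.29 and 1.73 to 12.3, 11.6, 16.3 and 7.66 CPM (log2 fold change 2.33, SE 0.22, limma adjusted p 6.84e-09). Mcm5, of the replicative helicase, rose from 6.59, 8.30, 6.07 and 6.47 to 23.6, 32.1, 37.4 and 17.3 CPM (log2 fold change 1.82, SE 0.25, limma adjusted p 1.12e-06). Ccne2 (cyclin E2) rose from 1.41 ± 0.421 to 7.46 ± 2.40 CPM. E2f1, a transcription factor of cell cycle genes, rose from 4.40 ± 0.682 to 11.6 ± 4.12 CPM. Genes of mitosis in the list were divided. Top2a was at 2.17 ± 0.889 and 4.97 ± 1.97 CPM, Cdk1 at 1.46 ± 0.953 and 4.46 ± 0.748 CPM, Aurka at 1.58 ± 0.535 and 2.92 ± 0.905 CPM and Bub1b at 1.04 ± 0.739 and 2.14 ± 0.504 CPM in the controls and in IRI, and all of them passed. Ccnb2 (cyclin B2, 1.08 ± 0.821 and 0.399 ± 0.0463 CPM), Nusap1, Cenpe and Foxm1 did not. Cdkn2c fell from 13.6 ± 2.54 to 8.08 ± 1.43 CPM. Ribosome biogenesis genes rose in 24 of 33 cases by a small amount (median 0.43), led by Rrp1b from 9.65 ± 0.601 to 19.4 ± 2.02 CPM. The small nucleolar RNP genes Nop58, Nhp2 and Nop56 rose as well. Nop58 rose from 29.8 ± 5.06 to 54.9 ± 8.52 CPM. Nhp2 rose from 60.1 ± 12.7 to 108 ± 6.44 CPM. Nop56 rose from 21.5 ± 3.73 to 39.6 ± 8.07 CPM.

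Growth factors and their receptors went both ways, 14 higher and 9 lower of 29 tested. Among ligands of the EGF receptor family, Egf fell while Nrg1 (neuregulin 1) rose from 3.63, 3.52, 3.23 and 4.03 to 27.1, 16.4, 13.8 and 20.1 CPM (log2 fold change 2.11, SE 0.22, limma adjusted p 2.61e-08). Hbegf rose from 13.98 ± 1.57 to 29.3 ± 1.21 CPM. Tgfa rose from 6.55 ± 1.31 to 9.97 ± 0.859 CPM. Areg (amphiregulin), with no read in the controls, rose to 2.40 ± 1.62 CPM. The receptor gene Egfr did not pass (41.6 ± 9.21 and 44.9 ± 10.4 CPM) and Erbb3 fell from 65.0 ± 13.9 to 50.2 ± 3.61 CPM. Inhbb, a subunit of activin and inhibin, rose from 1.73 ± 0.899 to 10.7 ± 3.69 CPM. Fgf18 rose from 0.269, 2.25, 1.03 and 2.45 to 5.51, 10.5, 11.02 and 7.21 CPM (log2 fold change 2.00, SE 0.29, limma adjusted p 3.25e-06). Igfbp1, an IGF binding protein gene, fell from 18.02 ± 4.55 to 4.71 ± 3.20 CPM. Igf1 fell from 8.86 ± 2.88 to 3.88 ± 1.60 CPM.

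The circadian clock genes changed in opposite directions. In the clock, Clock, Arntl (BMAL1) and Npas2 drive transcription through E-boxes, Nr1d1 and Nr1d2 (REV-ERB) and the Per and Cry genes repress that drive, and Dbp, Tef and Hlf carry the rhythm to output genes. Of 16 tested, 9 fell and 4 rose, and the counts against controls 1 and 4 were 9 and 4. The activators rose. Arntl rose from 0.538, 1.27, 1.16 and 0.575 to 5.11, 1.86, 3.21 and 4.92 CPM (log2 fold change 1.30, SE 0.28, limma adjusted p 2.72e-04). Npas2 rose from 1.08, 0.563, 1.29 and 0.431 to 3.67, 2.66, 2.99 and 4.00 CPM (log2 fold change 1.25, SE 0.22, limma adjusted p 3.27e-05). Clock rose from 61.5 ± 15.5 to 101 ± 14.2 CPM. Nfil3, the repressor that opposes Dbp, rose from 1.90 ± 0.617 to 6.57 ± 0.803 CPM. Several outputs and some of the repressors fell. Dbp fell from 211, 303, 248 and 207 to 51.7, 98.4, 86.7 and 57.7 CPM (log2 fold change −1.74, SE 0.20, limma adjusted p 9.60e-08). Nr1d1 fell from 90.4, 129.9, 115 and 117 to 47.6, 62.5, 41.8 and 70.1 CPM (log2 fold change −1.03, SE 0.15, limma adjusted p 3.23e-06). Hlf fell from 220.2 ± 28.2 to 85.1 ± 7.32 CPM. Usp2 fell from 175 ± 29.6 to 62.4 ± 12.1 CPM. Per3 fell from 27.1 ± 7.53 to 15.2 ± 4.14 CPM. Per1, Cry1 and Bhlhe40 did not pass. Ciart (CHRONO, a repressor of the clock) fell from 11.03, 15.6, 11.1 and 11.51 to 3.41, 4.53, 3.67 and 3.66 CPM (log2 fold change −1.46, SE 0.20, limma adjusted p 1.21e-06). Its promoter is shown because it holds 3 canonical E-boxes, CACGTG, in capitals (RefSeq, GRCm38.p6, chr3:95882229-95882478, minus strand).
Ciart: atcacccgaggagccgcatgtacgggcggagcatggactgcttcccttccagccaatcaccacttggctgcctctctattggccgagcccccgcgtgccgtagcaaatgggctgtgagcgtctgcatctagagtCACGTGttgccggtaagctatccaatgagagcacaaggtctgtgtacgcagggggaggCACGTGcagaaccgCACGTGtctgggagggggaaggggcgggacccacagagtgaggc
They start at −116, −58 and −44. Of all promoter windows 7.15% hold this motif, which reads the same on both strands, as do 2 of 8 clock genes that fell and had a promoter (Ciart and Tef). The time of day at harvest is not given in the sources used here, and its part in these values was not tested.

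**Figure D4:**
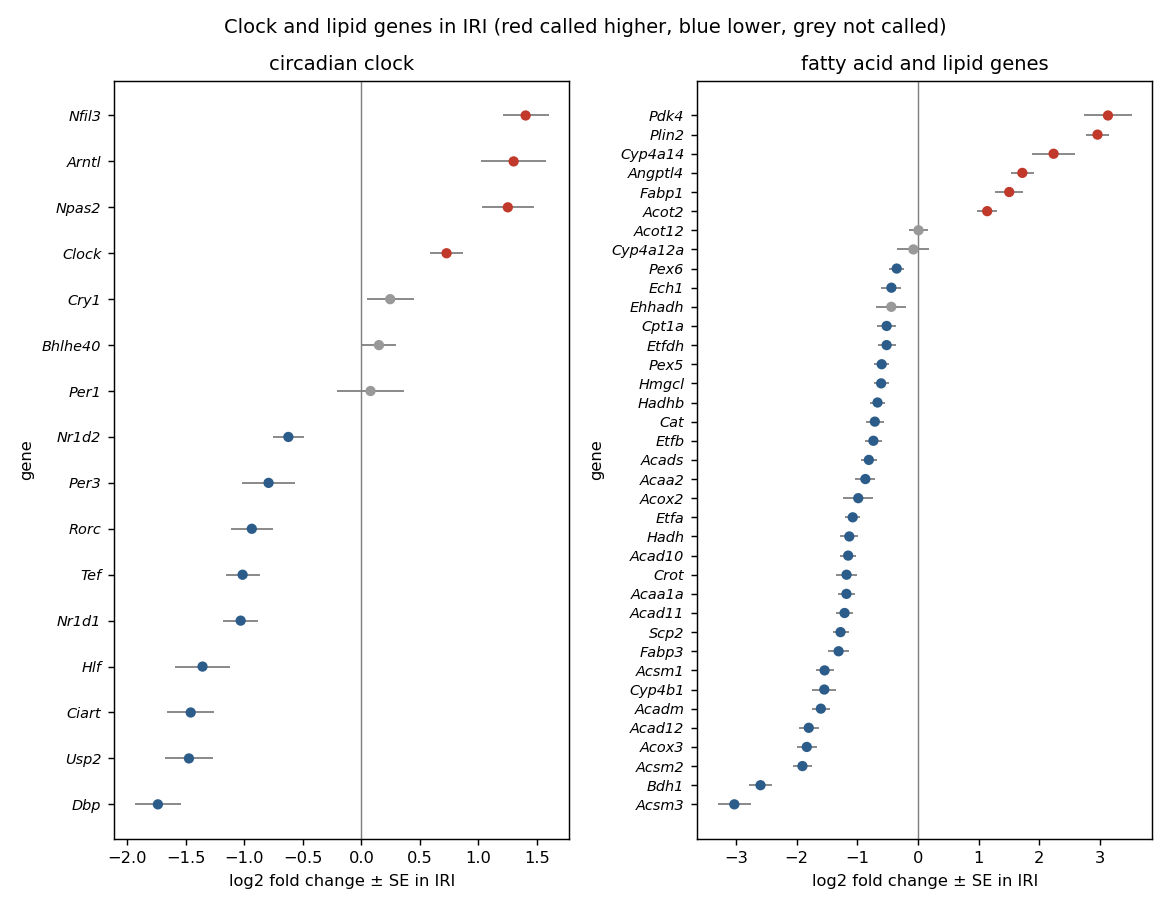
Log2 fold change in IRI with its SE for tested clock genes (left) and fatty acid and lipid genes (right) that are reported here, red for called higher, blue for called lower and grey for not called. Clock values run from −1.74 for Dbp to 1.40 for Nfil3, and lipid values from −3.03 for Acsm3 to 3.14 for Pdk4.

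A minority of the named calls did not pass without 1 of the libraries or with another setting. Without control 1, Vwf, Lck, Aurka and Erbb3 no longer passed (limma adjusted p 0.0695 to 0.0941). Without control 2, Plce1, Lck, Hba-a2, Hba-a1, Cd38 and Ciita no longer passed (limma adjusted p 0.0584 to 0.115). Without control 3, Plce1, Lck, Hba-a2, Hba-a1, Bid, C1qa, Cd38, Clic3, Erbb3, Hnf4a and Nnmt no longer passed (limma adjusted p 0.0519 to 0.0968). Without control 4, Vwf, C1qa, Ciita and Erbb3 no longer passed (limma adjusted p 0.0833 to 0.141). Without IRI mouse 1, Vwf, Lck, Hba-a2, Hba-a1, C1qa, Ciita and Erbb3 no longer passed (limma adjusted p 0.0542 to 0.130). Without IRI mouse 2, Plce1, Lck, Aurka, Bid and Erbb3 no longer passed (limma adjusted p 0.0533 to 0.186). Without IRI mouse 3, Aurka no longer passed (limma adjusted p 0.0501). Without IRI mouse 4, Lck, Hba-a2, Ciita and Erbb3 no longer passed (limma adjusted p 0.0552 to 0.105). The log2 fold changes of the calls lost without 1 library were then 65.8% to 106% of those reported. The calls lost were those of Rn45s and Vwf against all 8 controls (limma adjusted p 0.0520 to 0.0883) and those of Lck and Hba-a2 with a pseudocount of 0.1 (limma adjusted p 0.0532 to 0.145). Erbb3 lost its call with only the 8 IRI and matched control libraries (limma adjusted p 0.0618), and Plce1 by edgeR (edgeR adjusted p 0.0537). Against controls 1 and 4 alone, the calls lost were those of Rn45s, Nr1h4, Synpo, Plce1, Podxl, Flt1, Lck, Hba-a2, Hba-a1, Bid, Bub1b, C1qa, C1rl, Ccl2, Cd38, Clic3, Hnf4a and Nnmt (limma adjusted p 0.0575 to 0.741). After quantile normalization they were those of Gpx3, Plce1, Lck, Hba-a2, Hba-a1, Anpep, Aurka, Bid, Bub1b, C1qa, Cd38, Cubn, Erbb3, Hnf4a, Lrp2, Me1, Nnmt, Slc12a3, Timp3 and Tpi1, and after scaling to the 75th percentile those of Hba-a2, Bid, Ciita, Erbb3 and Hnf4a. Scaling to the 75th percentile moved the log2 fold change of all genes by a median of 0.13 and quantile normalization by −0.10, and 55.2% and 47.7% of calls were then higher in IRI, against 50.3% as deposited.

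The effect of IRI was set against those of the other injuries, each measured against the controls of its own identifier range, since IRI lies in a different range from the others. The IRI and rhabdomyolysis effects differed in 2949 of 5672 genes (52.0%), with the IRI effect higher in 1620 (28.6%) and lower in 1329 (23.4%). The IRI and cisplatin effects, at 24 h and 72 h, differed in 1716 genes (30.3%), higher in 763 (13.5%) and lower in 953 (16.8%), so that 44.5% of these calls were higher in IRI, against 55.3% after quantile normalization.

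Regulators and fuel genes of the proximal tubule were less reduced in IRI than in rhabdomyolysis. The IRI effect was the higher in 11 of 13 proximal tubule regulators, 30 of 38 lipid genes and 28 of 46 respiratory chain genes, and the lower in none of them. Against cisplatin the respiratory chain effects differed in no member, while 9 regulators had the higher effect in IRI. Hnf4a had log2 fold changes of −0.48 in IRI and −3.34 in rhabdomyolysis, a difference of 2.86 (SE 0.26, limma adjusted p 2.15e-08). Cyp24a1 differed by 6.52 (SE 0.61, limma adjusted p 3.24e-08). Cckar, a receptor for cholecystokinin, differed by 4.63 (SE 0.35, limma adjusted p 1.76e-09), Keg1 by 3.95 (SE 0.38, limma adjusted p 5.99e-08) and Tmem174 by 3.67 (SE 0.30, limma adjusted p 6.68e-09). The unnamed transcript 0610005C13Rik differed by 3.98 (SE 0.32, limma adjusted p 5.62e-09). Cbr1, the carbonyl reductase gene next to Cbr3, rose in IRI from 52.3 ± 11.6 to 314 ± 31.6 CPM and had −0.14 in rhabdomyolysis, a difference of 2.73 (SE 0.19, limma adjusted p 6.20e-10).

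Some genes of the cell cycle list were raised more in IRI than in the other injuries. Among the 32 cell cycle genes the IRI effect was higher in 13 and lower in 3 against rhabdomyolysis, and higher in 10 and lower in 2 against cisplatin. Uhrf1 differed from rhabdomyolysis by 1.18 (SE 0.38, limma adjusted p 0.0123) and from cisplatin by 1.497 (SE 0.38, limma adjusted p 0.00449), and Hells by 1.41 (SE 0.32, limma adjusted p 9.02e-04) and 1.75 (SE 0.32, limma adjusted p 2.35e-04). The log2 fold change of Mcm5 was 1.82 in IRI, against 0.86 for rhabdomyolysis and 0.75 for cisplatin. Its IRI effect differed from that in rhabdomyolysis by 0.95 (SE 0.35, limma adjusted p 0.0266) and from that in cisplatin by 1.07 (SE 0.35, limma adjusted p 0.0241). E2f1 differed from rhabdomyolysis by 1.23 (SE 0.33, limma adjusted p 0.00337), while its difference from cisplatin, 0.83 (SE 0.33, limma adjusted p 0.0575), did not pass.

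Stress lists often had the lower effect in IRI, in some lists against only 1 of the other injuries. The IRI effect was the lower in 20 of 25 immediate early genes against rhabdomyolysis and 20 against cisplatin, and the higher in none. Among 16 heat shock genes it was lower in 13 and higher in 1 against rhabdomyolysis, and lower in 5 and higher in 1 against cisplatin. For 24 genes of the integrated stress and unfolded protein responses these counts were 18 and 2 against rhabdomyolysis but 5 and 5 against cisplatin. Of 33 ribosome biogenesis genes 29 were lower against rhabdomyolysis and 9 against cisplatin, and none higher. Of 22 p53 targets 8 were lower and 2 higher against rhabdomyolysis, and 21 lower and 0 higher against cisplatin. NRF2 targets did not share this direction. Of 22, 8 were lower and 6 higher against rhabdomyolysis, and 2 lower and 5 higher against cisplatin. The interferon and antigen presentation list, in which 4 members rose and 5 fell in IRI, had the lower IRI effect in 4 of 21 cases against rhabdomyolysis and 15 against cisplatin. Hspa1a, the inducible Hsp70, did not pass in IRI (11.3, 16.2, 12.9 and 11.1 CPM in the controls and 14.3, 16.0, 13.2 and 18.8 CPM in IRI) and differed from rhabdomyolysis by −6.23 (SE 0.31, limma adjusted p 2.34e-12), and its near-identical copy Hspa1b by −5.26 (SE 0.33, limma adjusted p 9.00e-11). A further gene with a lower effect in IRI than in rhabdomyolysis was Procr, the endothelial protein C receptor, by −4.99 (SE 0.26, limma adjusted p 5.07e-12). Mmp10, a matrix protease, was at 59.8 CPM in rhabdomyolysis, 7.56 CPM in cisplatin, 0.255 CPM in IRI and 0 CPM in both control groups. It reached the minimum mean only through the other injuries, so its difference follows from the choice of genes and is given with no test. The somatostatin receptor gene Sstr5 (23.9 CPM in rhabdomyolysis and no read in IRI or its controls) and Myo18b (25.5 CPM in rhabdomyolysis and 0.0333 ± 0.0666 CPM in IRI) reached the minimum mean only through rhabdomyolysis, so their difference follows from that choice of genes and is given with no test. Against cisplatin, the IRI effect on Hbb-b1, Hbb-bs and Hba-a2, which encode globin chains, was higher by 6.93 (SE 0.36, limma adjusted p 1.81e-11), 7.01 (SE 0.75, limma adjusted p 3.32e-07) and 5.63 (SE 0.65, limma adjusted p 9.97e-07). The effect on Fam212b differed by −4.26 (SE 0.35, limma adjusted p 5.93e-09). The genes 1700007K13Rik (36.3 CPM in cisplatin and 0.424 CPM in IRI) and Zfp365 (42.2 and 1.01 CPM) reached the minimum mean only through cisplatin and are likewise given with no test.

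**Figure D5:**
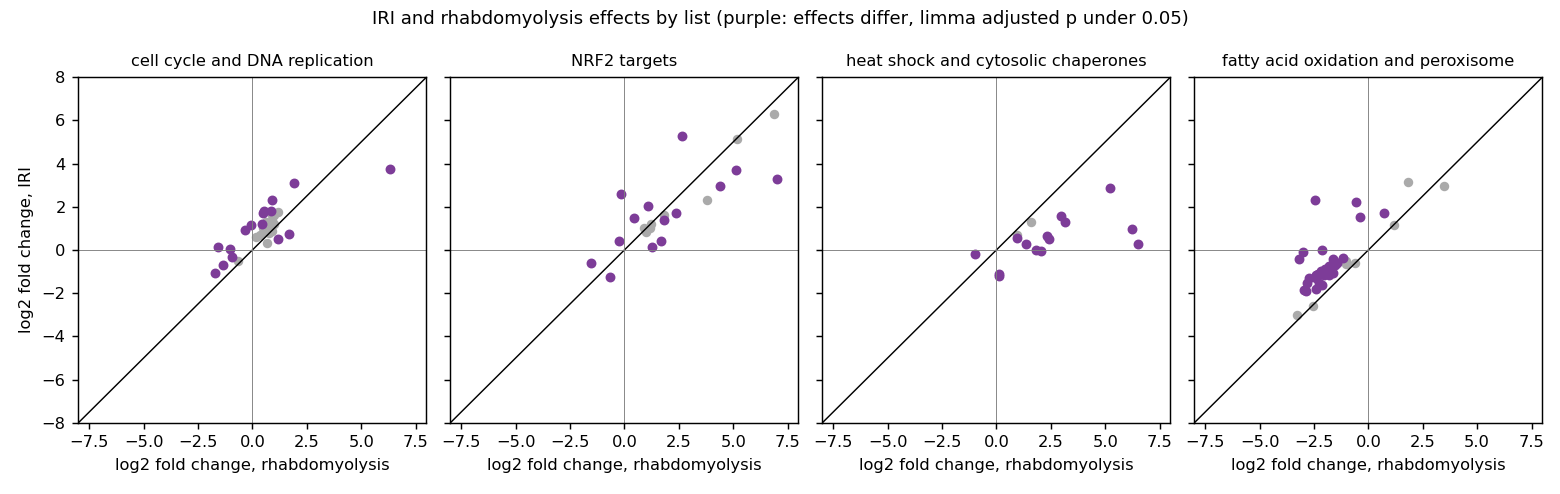
Log2 fold change in IRI (vertical) against that in rhabdomyolysis (horizontal) for the members of 4 lists, each injury against its own controls, with a diagonal of equal effect and purple points for genes whose effects differ. Cell cycle and lipid genes lie mostly above the diagonal, heat shock genes mostly below it, and NRF2 targets on both sides (6 with a higher and 8 with a lower IRI effect).

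The 4 IRI mice differed among themselves in some programmes. The gluconeogenesis list summed to 3779, 5393, 5251 and 7240.5 CPM in IRI and 10093, 13907, 13247 and 8821 CPM in the controls, and the lipid list to 9557, 9502, 9797 and 13305 and 20943, 23351, 23809 and 18142 CPM, both highest in mouse 4 among the IRI mice. Most of the gluconeogenesis sum came from Fbp1 and another member. Without them it was 715, 833, 886 and 1034 CPM in IRI and 2122, 2489, 2607 and 1812 CPM in the controls. The circadian list summed to 781, 969, 927 and 1023 CPM in IRI, lowest in mouse 1, and to 1717, 1605, 1593 and 1612 CPM in the controls. In each of these lists the 4 IRI sums lay outside the 4 control sums.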

How the data were processed

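Poly-A RNA of kidney cortex was sequenced in 20 mice. Per the submitters' processing notes, reads were handled with FastQC, Bowtie2 2.1.0, RSEM 1.2.15 and edgeR on GRCm38 (mm10). The deposited values are CPM per gene, and 13 of the 6025 gene symbols look like dates. Every gene in the deposited table differs at least 1.5-fold from the mean of the 8 controls in 1 or more injuries and exceeds 1 CPM in at least 4 libraries. Each value is a whole multiple of what 1 read is worth in its library (100% of values, within 0.001 of a whole read). The tabulated genes held 46.3% to 48.3% of the library in IRI and 55.3% to 70.6% in the matched controls.

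The 5672 genes that averaged 1 CPM or more over the 20 libraries were kept, and log2(CPM + 1) was fitted with limma 3.58.1 in R 4.3.3 over all 20 libraries (IRI, matched controls, other controls, rhabdomyolysis and cisplatin as separate groups), with a mean-variance trend and Benjamini-Hochberg adjustment over these genes at a threshold of 0.05. With this pseudocount, fold changes of weakly read genes come out too small. A group with no or few reads was compared with the value of 3 reads per library. Alternatives were another pseudocount, filters, scalings, controls, variance models, a replicate block, leaving out each of the 8 IRI and matched control libraries, and edgeR 4.0.16 on the recovered reads of 19 libraries (1 cisplatin library was left out). Genes were named by size of change overall and within each list, with the members that define a list. Some genes are not reported here by name, and counts and medians of lists include them. Members, lists and the naming rule were chosen with earlier results of these data known.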

Additional observations from a re-analysis of the deposited data

Results flagged for a closer look

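A mouse was taken as distant from its group when its gap to the nearest other value, divided by the range of the 4, exceeded Dixon's critical value. This held for 44 of 542 groups of 4 values in 274 named genes, where chance alone gives about 5%. IRI mouse 1 was far above the rest of its group for Asns (69.6 CPM, ratio 0.868), Mthfd2 (29.8 CPM, ratio 0.864), C1qa (26.4 CPM, ratio 0.830) and Trib3 (28.7 CPM, ratio 0.915). IRI mouse 2 was far above the rest of its group for Maff (20.9 CPM, ratio 0.914), Ppp1r1a (45.4 CPM, ratio 0.865), Myo18b (0.133 CPM, ratio 1.00), Zfp365 (2.13 CPM, ratio 0.928), Cxcl9 (2.13 CPM, ratio 0.927), Lhx1 (13.9 CPM, ratio 0.876) and Vcam1 (22.1 CPM, ratio 0.934). IRI mouse 2 was far below the rest of its group for Hnf4a (782 CPM, ratio 0.895) and Hspa8 (1292 CPM, ratio 0.956). IRI mouse 3 was far above the rest of its group for Esrra (119 CPM, ratio 0.907) and Ripk3 (4.48 CPM, ratio 0.846). IRI mouse 4 was far above the rest of its group for Rn45s (6625 CPM, ratio 0.831), Psat1 (365 CPM, ratio 0.892), Acsm3 (202 CPM, ratio 0.922), Tubb2a (307 CPM, ratio 0.842), Capg (76.0 CPM, ratio 0.973), Acot2 (152 CPM, ratio 0.840), Ctgf (100.4 CPM, ratio 0.965), Cyp27b1 (119.7 CPM, ratio 0.978) and Igfbp1 (9.49 CPM, ratio 0.911). IRI mouse 4 was far below the rest of its group for Serpinh1 (153 CPM, ratio 0.843), Il6 (0 CPM, ratio 0.862) and Tgfa (8.69 CPM, ratio 0.836). Control 1 was far below the rest of its group for Pvalb (20.0 CPM, ratio 0.855). Control 2 was far above the rest of its group for Ciart (15.6 CPM, ratio 0.897), Vgf (0.141 CPM, ratio 1.00), Serpina3n (0.422 CPM, ratio 1.00) and Sprr2f (0.141 CPM, ratio 1.00). Control 2 was far below the rest of its group for Top2a (0.845 CPM, ratio 0.917). Control 3 was far above the rest of its group for Fosl1 (0.129 CPM, ratio 1.00). Control 3 was far below the rest of its group for Cxcl1 (0 CPM, ratio 0.935). Control 4 was far above the rest of its group for Pdk4 (38.3 CPM, ratio 0.955), Slc4a1 (129 CPM, ratio 0.882), Mmp9 (1.01 CPM, ratio 0.943), Ccnb2 (2.30 CPM, ratio 0.866), Cdk1 (2.88 CPM, ratio 0.846), Fos (1.44 CPM, ratio 0.894) and Il6 (0.144 CPM, ratio 1.00). Control 4 was far below the rest of its group for Slc7a13 (435 CPM, ratio 0.870) and Cd74 (107 CPM, ratio 0.890). IRI mouse 4 accounted for 12 of these values and control 4 for 9. For Fosl1, Vgf, Sprr2f, Il6 in control 4 and Myo18b the high value is a single read.

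The effect of IRI differed from that of rhabdomyolysis in 2949 genes and from that of cisplatin in 1716 by the limma test of the difference. Against rhabdomyolysis, the IRI effect was higher on the log2 scale by 6.52 for Cyp24a1, 4.63 for Cckar, 3.98 for 0610005C13Rik, 3.95 for Keg1 and 3.67 for Tmem174, and the difference was −6.23 for Hspa1a, −5.59 for Mmp10, −5.26 for Hspa1b, −4.99 for Procr, −4.63 for Sstr5 and −4.55 for Myo18b. Against cisplatin it was higher by 7.01 for Hbb-bs, 6.93 for Hbb-b1 and 5.63 for Hba-a2, and the difference was −5.11 for 1700007K13Rik, −4.52 for Zfp365 and −4.26 for Fam212b. For Sstr5, Myo18b, 1700007K13Rik and Zfp365 the difference follows from the minimum mean, which they reached only through the other injury. The same holds for Mmp10, which reached it only through rhabdomyolysis and cisplatin.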

How the results depend on the processing

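The number of genes changed in IRI was 4578 as reported and ran from 3816 with a minimum mean of 5 CPM (of 4429 genes tested) to 4813 against all 8 controls, with 4195 after quantile normalization, 4548 by edgeR and 3871 against controls 1 and 4, the last chosen after seeing the data. Requiring a fold of at least 2 left 1717, 1283 and 805 genes for the change in IRI, the difference from rhabdomyolysis and that from cisplatin. Leaving out 1 of the 8 IRI and matched control libraries at a time (no library of the other injuries was left out) gave 4331 to 4527, 2696 to 2999 and 1480 to 1728, and edgeR gave 2789 and 1285 for the differences. The replicate block, fitted to the 8 libraries, gave 4411 genes and ended the calls of Gpx3, Plce1, Lck and Ciita. IRI and control mice that share a number had deviations from their group means correlated at 0.06, −0.11, 0.18 and −0.05, so the numbers were not taken as a pairing.

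Over 274 named genes and the alternatives, 5236 of 5448 values kept their side of the threshold (of these, 24 for 11 genes changed sign, called neither before nor after), 166 lost their call, 42 gained one and 4 reversed, all after quantile normalization: Hnf4a to 0.33, Lrp2 to 0.0429, Timp3 to 0.29 and Tpi1 to 0.10. List medians changed sign for interferon and antigen presentation (−0.0422 after quantile normalization, −0.0446 against controls 1 and 4), endothelium (−0.0495 against controls 1 and 4) and lymphoid and dendritic cells (−0.10 with no minimum mean, −0.14 after quantile normalization, −0.0272 without control 2 as the lowest and 0.16 without control 4 as the highest when 1 library was left out, and −0.11 against controls 1 and 4). The cause of these reversals was not tested. With a minimum mean of 5 CPM fewer genes were tested, and the neutrophil list then had 2 members called higher, the cell cycle list 12 and the chemokine list 8. Genes of a few reads, such as most neutrophil and lymphoid markers, are limited by depth, since 1 read is worth 0.114 to 0.144 CPM.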

Other observations

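Several further gene groups differed between the injuries, to be read against 28.6% of all genes with a higher and 23.4% with a lower effect in IRI than in rhabdomyolysis, and 13.5% and 16.8% against cisplatin. Tubular injury genes had the lower effect in IRI in 17 of 26 cases against rhabdomyolysis and 13 against cisplatin. Sox9 had log2 fold changes of 3.54, 4.74 and 3.83 in IRI, rhabdomyolysis and cisplatin, a difference from rhabdomyolysis of −1.20 (SE 0.29, limma adjusted p 0.00182). Vgf had 3.27, 5.00 and 3.28, and its difference from rhabdomyolysis was −1.72 (SE 0.49, limma adjusted p 0.00625). For Havcr1 the difference was 0.68 (SE 0.33, limma adjusted p 0.0879) and 0.81 (SE 0.33, limma adjusted p 0.0648), and passed against neither injury. Endothelial markers had the lower effect in IRI in 8 of 11 cases against rhabdomyolysis, and cytoskeleton genes in 20 of 38. NF-kappaB and IL-6 family genes had the lower effect in 13 of 28 cases against rhabdomyolysis and 18 against cisplatin, and Socs3 differed by −0.90 (SE 0.34, limma adjusted p 0.0341) and −0.95 (SE 0.34, limma adjusted p 0.0411).

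Proximal tubule transporters had the higher effect in IRI, a smaller fall, in 22 of 36 cases against rhabdomyolysis and 15 against cisplatin, and the lower effect in 4 and 6. Tryptophan and NAD genes had the higher effect in 12 of 15 cases against rhabdomyolysis, among them Acmsd by 2.19 (SE 0.36, limma adjusted p 4.84e-05). Kl fell by less in IRI than in rhabdomyolysis, with a difference of 1.23 (SE 0.21, limma adjusted p 6.30e-05). Markers of the thick ascending limb had 2 higher and 1 lower IRI effects of 11 against rhabdomyolysis and 3 higher and 3 lower against cisplatin, where Slc12a1 fell further in IRI, with a difference of −1.50 (SE 0.36, limma adjusted p 0.00279). Of the fibrinogen genes, Fgg and Fga had the higher effect in IRI than in rhabdomyolysis, by 1.21 (SE 0.29, limma adjusted p 0.00169) and 1.28 (SE 0.37, limma adjusted p 0.00624), while Fgb differed by 1.00 (SE 0.47, limma adjusted p 0.0820) and did not pass.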
